A study of Mus musculus with 6 samples.

Results

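Mitochondrial fatty acid oxidation was examined in brown adipocytes with a knock-down of Aspa, through 33 listed genes of 6 steps: activation of fatty acids, the carnitine shuttle, acyl-CoA dehydrogenases, electron transfer, the later steps of the cycle, and acyl-CoA thioesterases. A gene was taken where the array annotation paired a probe set with that gene alone, and where several did so, the brightest of them over all arrays was used. This left 30 of the 33 genes, among 22180 genes represented in the same way. Acsl3 and Cpt1b lay only on probe sets shared with other genes (Utp14b for Acsl3, Chkb and Gm44502 for Cpt1b), and Acsl1 was not named by the annotation used here, so that these 3 genes were not analysed here. Transcripts were read on 6 arrays of the Affymetrix Mouse Gene 2.0 ST type, 3 of siAspa cells and 3 of ntc cells. The siAspa group consisted of iBACs, an immortalized mouse line that differentiates into brown adipocytes, carrying a lentiviral shRNA against Aspa (aspartoacylase, which cleaves N-acetylaspartate into aspartate and acetate). The ntc group consisted of the same line carrying a non-targeting construct. Both groups had been infected before confluence and selected with G418, both were differentiated with IBMX, dexamethasone, insulin, triiodothyronine and indomethacin, and both were harvested on day 7 in medium with insulin and triiodothyronine. The knock-down rests on 1 shRNA construct, and the 3 arrays of a group came from different passages of the line, so that the p-values measure the spread between passages of these cells.

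In fatty acid oxidation, a fatty acid is first bound to coenzyme A, carried into the mitochondrion as a carnitine ester, and then shortened in repeated rounds of dehydrogenation, hydration, a further dehydrogenation and thiolytic cleavage that release acetyl-CoA. The electrons of the first dehydrogenation reach the respiratory chain through the electron transfer flavoprotein. Brown adipocytes burn fatty acids from their lipid droplets in this way to produce heat through uncoupling protein 1.

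The cells were checked first. Aspa read 7.02, 6.97 and 7.44 (log2 signal) on the 3 siAspa arrays and 9.07, 8.81 and 8.59 on the 3 ntc arrays, a log2 fold change of -1.68 ± 0.17 (SE, siAspa minus ntc; adjusted p = 0.0343), that is 31.2% of the ntc level. This call was lost when any 1 of the 6 arrays was left out (adjusted p 0.0836 to 0.171). Ucp1, the uncoupling protein of brown fat, read 9.96, 9.87 and 10.41 in siAspa and 12.07, 11.62 and 11.71 in ntc (log2 fold change -1.72, adjusted p = 0.0343). Among general adipocyte markers, Fabp4 and Adipoq stood at mean log2 signals of 13.27 and 10.13 in siAspa cells and at 13.39 and 10.21 in ntc cells, so that both groups carried these markers of differentiated adipocytes. Of the 14 general adipocyte markers measured, 9 were lower in siAspa cells at an unadjusted p under 0.05, as given with the marker lists. The correlation between any 2 arrays over all probe sets was at least 0.988. Of all genes, 0.0992% passed the test as lower and 0.189% as higher in siAspa cells, at an adjusted p under 0.05 over all 41345 probe sets. Without any 1 array, 0 to 1 probe sets were called in each direction, so that the calls of the main test given here rest on all 6 arrays.

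The transcripts of the pathway had lower median values in siAspa cells at every step, by amounts that mostly stayed under 1.5-fold. Of the 30 measured genes, 27 had a negative log2 fold change and 3 a positive one, where 10095 of all 22180 genes had a negative one. The median of the 30 was -0.30, beside 0.02 over all genes. No gene of the pathway passed the main test in either direction (0 of 30 lower beside 0.0992% of all genes, 0 of 30 higher beside 0.189%). At an unadjusted p under 0.05, 21 of 30 were lower and 0 higher, where 6.17% of all genes were lower and 6.87% higher. In 22 of 30 genes all 3 siAspa arrays lay below all 3 ntc arrays, which was so for 9.99% of all genes. In 0 of 30 did they all lie above, against 12.6% of all genes. When the variances were shrunk towards a trend with signal, with protection against outlying probe sets (the robust prior), 8 of 30 genes passed an adjusted p under 0.05 as lower, beside 0.816% of all genes, and 0 of 30 as higher, beside 0.559%. These 8 genes were Slc25a20, Cpt2, Acadvl, Etfa, Hadh, Hadha, Acaa2 and Acot2. They stand for the shuttle, the dehydrogenases, electron transfer, the later steps and the thioesterases, and no activation gene was among them. In bulk RNA, fewer cells with an active pathway and less RNA of these genes per cell cannot be told apart.

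**Figure D1:**
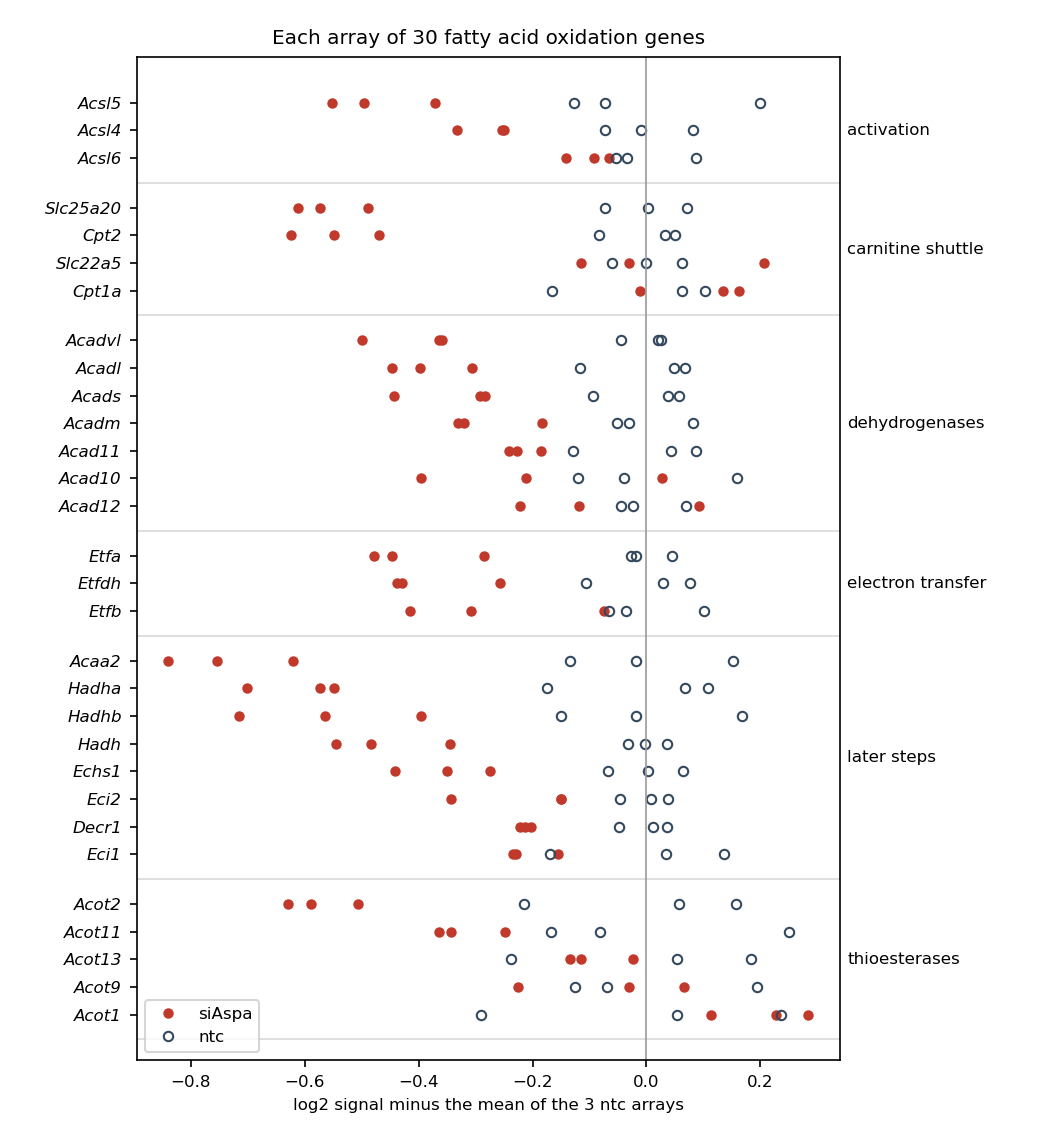
Each row is 1 of the 30 measured genes, grouped by step, and the horizontal axis gives the log2 signal of each array minus the mean of the 3 ntc arrays of that gene (filled points siAspa, open points ntc). In 22 rows the filled points all lie left of the open ones, and the later steps reach furthest to the left, with a median log2 fold change of -0.41.

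The steps differed in how far their genes stood below ntc. The median log2 fold change was -0.28 for activation (3 genes), -0.26 for the carnitine shuttle (4 genes), -0.28 for the dehydrogenases (7 genes), -0.37 for electron transfer (3 genes), -0.41 for the later steps (8 genes) and -0.09 for the thioesterases (5 genes). Differences between steps were not tested. All 18 genes of the dehydrogenases, electron transfer and the later steps were lower in the mean of siAspa cells, as were 10095 of all 22180 genes. At an unadjusted p under 0.05, 15 of the 18 were lower, beside 6.17% of all genes.

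Promoter sequences of the pathway were taken from RefSeq (build GRCm38.p6), as windows of 300 bases with 250 bases before and 50 bases after an annotated start. They matched 29 of the 33 listed genes, 27 of them measured, with 33 windows. Of these, 4 windows are shown, chosen with their values known, because they belong to genes of the shuttle and of the trifunctional protein that stand at opposite ends of the measured differences. Hadhb (chr5:30155003-30155302, plus strand) shares its window with Hadha (chr5:30154931-30155230, minus strand). The genes start head to head 273 bases apart, their windows overlap by 228 bases, and both had lower signals in siAspa cells. Slc25a20 (chr9:108661886-108662185, plus strand) and Cpt2 (chr4:107923540-107923839, minus strand) were lower as well. Cpt1a (chr19:3323051-3323350, plus strand) had a log2 fold change of 0.10. The sequences run 5′ to 3′ in the direction of the gene, and the capitals mark the GC box GGGCGG read on either strand.
Hadhb: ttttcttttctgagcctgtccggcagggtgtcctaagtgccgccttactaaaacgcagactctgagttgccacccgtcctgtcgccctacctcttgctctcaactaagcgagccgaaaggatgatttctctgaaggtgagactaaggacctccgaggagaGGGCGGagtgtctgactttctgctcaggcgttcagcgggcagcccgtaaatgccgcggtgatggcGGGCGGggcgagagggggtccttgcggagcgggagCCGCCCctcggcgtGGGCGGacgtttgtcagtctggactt
Slc25a20: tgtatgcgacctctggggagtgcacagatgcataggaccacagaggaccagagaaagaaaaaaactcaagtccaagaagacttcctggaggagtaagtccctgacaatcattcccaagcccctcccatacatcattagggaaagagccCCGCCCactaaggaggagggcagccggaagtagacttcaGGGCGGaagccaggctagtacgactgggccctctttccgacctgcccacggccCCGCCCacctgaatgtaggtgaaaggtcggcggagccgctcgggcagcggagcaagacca
Cpt2: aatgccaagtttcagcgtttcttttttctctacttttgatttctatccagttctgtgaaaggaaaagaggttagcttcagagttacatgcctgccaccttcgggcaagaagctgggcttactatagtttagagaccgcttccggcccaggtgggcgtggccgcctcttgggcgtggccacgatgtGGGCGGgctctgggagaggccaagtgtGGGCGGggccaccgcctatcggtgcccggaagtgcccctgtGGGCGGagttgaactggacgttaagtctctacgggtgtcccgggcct
Cpt1a: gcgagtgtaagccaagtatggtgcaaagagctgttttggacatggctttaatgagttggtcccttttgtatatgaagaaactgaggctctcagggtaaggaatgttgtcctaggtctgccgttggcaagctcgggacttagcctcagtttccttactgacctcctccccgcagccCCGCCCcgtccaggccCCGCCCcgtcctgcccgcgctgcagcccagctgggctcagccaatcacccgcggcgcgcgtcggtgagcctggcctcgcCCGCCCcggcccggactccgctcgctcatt

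The GC box, which zinc finger factors of the Sp family bind, stood in all 4 of these windows, 4 times for Hadhb and 3 times each for Slc25a20, Cpt2 and Cpt1a, so that it did not set Cpt1a apart from the other 3. Over the pathway, 24 of 33 windows held it, beside 35.7% of 32851 RefSeq promoter windows. The windows of the pathway also had more G and C, at 62.2% beside 53.8% over all windows, and the part of that composition in the GC box count was not tested. CCAAT on either strand stood in 16 of 33 windows, beside 37.4% of all. The element TCAAGGTCA, which estrogen-related receptors bind, stood in 1 of 33 windows, a window of Acsl6, beside 0.423% of all. A direct repeat of AGGNCA with 1 base between the copies, the form that PPAR and RXR bind, stood in 0 of 33 windows, beside 0.381% of all. GC boxes overlapped each other in 4 of the 33 windows, and no 2 different motifs overlapped. A match describes letters in the window and says nothing about binding.

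Activation of long-chain fatty acids is carried out by acyl-CoA synthetases. Of the 5 listed, Acsl4, Acsl5 and Acsl6 were measured, and Acsl4 and Acsl5 are given with every array in place of the missing Acsl1, a choice made after their values had been seen. Acsl5 read 9.70, 9.64 and 9.82 in siAspa and 10.39, 10.12 and 10.07 in ntc (log2 fold change -0.47 ± 0.11 (SE), adjusted p = 0.169). Acsl4, which prefers arachidonic acid, read 9.84, 9.76 and 9.84 in siAspa and 10.08, 10.02 and 10.17 in ntc (log2 fold change -0.28 ± 0.08, adjusted p = 0.24). For both genes every siAspa array lay below every ntc array, while neither passed the test. Acsl6 stood at -0.10 (log2 fold change, adjusted p = 0.689), and its second, dimmer probe set gave -0.07. On the brighter probe set the groups of Acsl6 did not overlap either, but only narrowly, with siAspa 1 at 6.276 beside ntc 2 at 6.289. Without ntc 3 the value of Acsl6 was -0.056.

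Within the carnitine shuttle, the inner-membrane members had negative log2 fold changes, while the groups overlapped for Cpt1a. Slc25a20, the carnitine-acylcarnitine carrier of the inner membrane, read 9.19, 9.06 and 9.10 in siAspa and 9.75, 9.68 and 9.60 in ntc. Its mean was 9.12 ± 0.06 in siAspa and 9.68 ± 0.07 in ntc (SD, n = 3 each), 67.9% of the ntc level, with a log2 fold change of -0.56 ± 0.08 (SE, adjusted p = 0.0665, under the robust prior 0.0176). Cpt2, which hands the acyl group back to coenzyme A in the matrix, read 9.59, 9.44 and 9.51 in siAspa and 10.09, 9.98 and 10.11 in ntc. Its log2 fold change was -0.55 ± 0.08 (adjusted p = 0.0734, under the robust prior 0.0204). The groups were separated in both genes by several times the spread within a group.

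Cpt1a, the carnitine palmitoyltransferase of the outer membrane and the entry point that malonyl-CoA inhibits, read 9.93, 9.90 and 9.76 in siAspa and 9.60, 9.83 and 9.87 in ntc (log2 fold change 0.10 ± 0.10, adjusted p = 0.786). Here the groups overlapped, with ntc 1 the lowest of the 6 arrays, and without ntc 1 the log2 fold change was 0.012. The 95% confidence interval of its log2 fold change, -0.15 to 0.34, lay above that of Cpt2, -0.74 to -0.35. The within-array difference of Cpt2 and Cpt1a gave a difference of log2 fold changes of -0.64 (95% confidence interval -0.98 to -0.31), for a pair picked after the values had been seen and therefore given without a test. Cpt1b, also listed in the shuttle, was not analysed here, so that the values of Cpt1a do not stand for the whole entry step. Slc22a5, the carnitine transporter of the plasma membrane, read 7.16, 7.07 and 7.40 in siAspa and 7.25, 7.19 and 7.13 in ntc (log2 fold change 0.02 ± 0.10, adjusted p = 0.965). Its highest and its lowest array both belonged to siAspa, and its sign turned when siAspa 3 or ntc 3 was left out (-0.073 and -0.01).

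**Figure D2:**
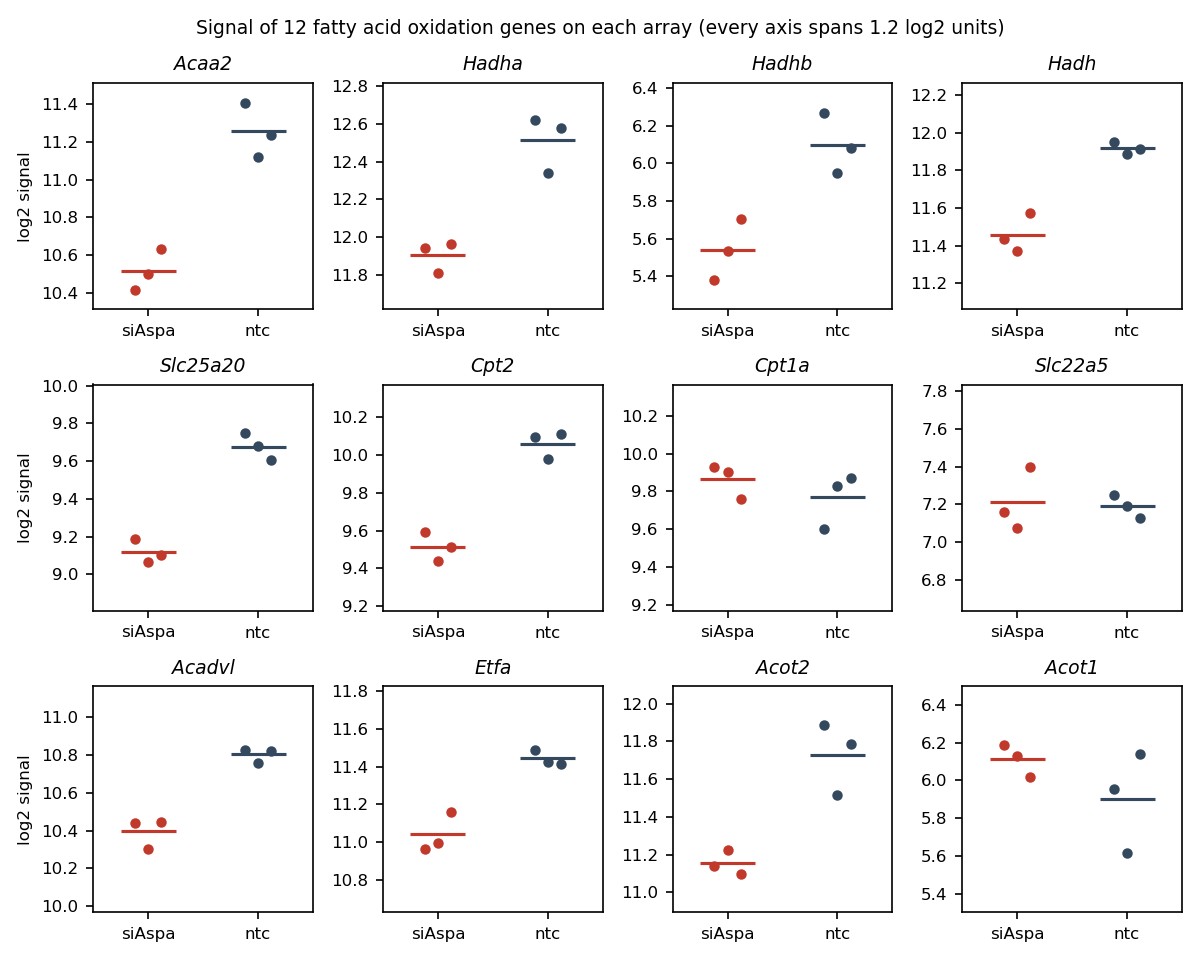
Log2 signal of 12 genes of the pathway on every array (points, siAspa left and ntc right) with the mean of each group as a line, where every vertical axis spans 1.2 log2 units. The groups are apart in 9 panels, those of Acaa2, Hadha, Hadhb, Hadh, Slc25a20, Cpt2, Acadvl, Etfa and Acot2, and overlap for Cpt1a, Slc22a5 and Acot1.

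The acyl-CoA dehydrogenases take the first electrons from the acyl chain, each over its own range of chain lengths. All 7 had a negative log2 fold change, and for 5 the unadjusted p was under 0.05. Acadvl, for very long chains, read 10.44, 10.30 and 10.44 in siAspa and 10.83, 10.76 and 10.82 in ntc (log2 fold change -0.41 ± 0.08 (SE), adjusted p = 0.118, under the robust prior 0.0315). Acadl, for long chains, read 11.17, 11.22 and 11.31 in siAspa and 11.68, 11.66 and 11.50 in ntc (log2 fold change -0.38 ± 0.09, adjusted p = 0.159, under the robust prior 0.0561). Acadl thus missed the threshold under both priors, although its arrays did not overlap. The difference between the log2 fold changes of Acadl and Acadvl was 0.02 (95% confidence interval -0.22 to 0.27, exact two-sided permutation p = 0.6).

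Of the enzymes for shorter chains, Acadm (medium chains) had a log2 fold change of -0.28 and Acads (short chains) one of -0.34. Their adjusted p-values were 0.262 and 0.201, and the groups did not overlap. An order by chain length was not tested. Acad11, a related dehydrogenase, gave -0.22 without overlap (adjusted p = 0.394). Acad10 and Acad12, on dimmer probe sets with means of 6.50 and 5.65 over the 6 arrays, gave -0.19 and -0.08, and their groups overlapped. Leaving out 1 array moved these values between -0.30 and -0.092 for Acad10 and between -0.17 and -0.013 for Acad12.

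Electron transfer flavoprotein, made of the subunits Etfa and Etfb, collects the electrons of all these dehydrogenases and passes them to ubiquinone through Etfdh. Etfa read 10.97, 11.00 and 11.16 in siAspa and 11.49, 11.43 and 11.42 in ntc (log2 fold change -0.40 ± 0.08, adjusted p = 0.133, under the robust prior 0.0424). The log2 fold change was -0.37 for Etfdh (adjusted p = 0.185) and -0.27 for Etfb (adjusted p = 0.418). In all 3 genes the arrays of the groups did not overlap, for Etfb by a margin that left siAspa 3 at 10.53 beside ntc 2 at 10.54. The difference between the log2 fold changes of Etfa and Etfb was -0.14 (95% confidence interval -0.28 to 0.01, exact two-sided permutation p = 0.1, adjusted p = 0.25), where 0.1 is the smallest p that 3 arrays against 3 can give.

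The later steps held the lowest values of the pathway. Acaa2, the thiolase that releases acetyl-CoA in the last reaction, read 10.42, 10.50 and 10.64 in siAspa and 11.41, 11.12 and 11.24 in ntc. Its mean was 10.52 ± 0.11 in siAspa and 11.26 ± 0.14 in ntc (SD, n = 3 each), 59.9% of the ntc level, with a log2 fold change of -0.74 ± 0.10 (SE, adjusted p = 0.0665, under the robust prior 0.0189). Acaa2 and Hadha were the 2 genes of the pathway with a mean at least 1.5-fold below ntc.

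Hadha and Hadhb encode the subunits of the trifunctional protein, which carries out the last 3 reactions on long chains at the inner membrane. Hadha read 11.94, 11.81 and 11.96 in siAspa and 12.62, 12.34 and 12.58 in ntc (log2 fold change -0.61 ± 0.10, adjusted p = 0.098, under the robust prior 0.0266). Hadhb read 5.38, 5.53 and 5.70 in siAspa and 6.27, 5.95 and 6.08 in ntc (log2 fold change -0.56 ± 0.12, adjusted p = 0.145, under the robust prior 0.103). The Hadhb probe set lay near the median of its arrays (5.78 to 5.85), the values carry no detection call, and the background of dim probe sets compresses fold changes. The partners, whose promoters face each other as shown above, differed in log2 fold change by -0.05 (95% confidence interval -0.34 to 0.24, exact two-sided permutation p = 0.6), which does not show that they changed alike.

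Hadh, the hydroxyacyl-CoA dehydrogenase of the matrix for shorter chains, read 11.43, 11.37 and 11.57 in siAspa and 11.95, 11.88 and 11.91 in ntc (log2 fold change -0.46 ± 0.08, adjusted p = 0.107, under the robust prior 0.0253). Its 3 ntc arrays lay within 0.1 log2 units of each other, and siAspa 3 came nearest to them. For Echs1, the hydratase, the log2 fold change was -0.36 (adjusted p = 0.166). The auxiliary enzymes for unsaturated fatty acids had smaller values, -0.21 each for Eci1 and Eci2 (isomerases) and for Decr1 (dienoyl-CoA reductase), with adjusted p-values of 0.489, 0.403 and 0.307. The groups did not overlap for Eci2 and Decr1 and did for Eci1. Eci2 lies beside the related gene Eci3, and cross-hybridization between related copies was not tested.

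The thioesterases, which split acyl-CoA back into a free fatty acid and coenzyme A, did not share 1 pattern. Acot2, the mitochondrial long-chain enzyme, read 11.14, 11.22 and 11.10 in siAspa and 11.89, 11.51 and 11.79 in ntc (log2 fold change -0.58 ± 0.11, adjusted p = 0.122, under the robust prior 0.0494). Its neighbour Acot1, the cytosolic enzyme, read 6.19, 6.13 and 6.02 in siAspa and 5.96, 5.61 and 6.14 in ntc (log2 fold change 0.21 ± 0.14, adjusted p = 0.641). Its groups overlapped, with ntc 2 alone well below the rest, and without ntc 2 its log2 fold change was 0.063. Acot1 and Acot2 are near-identical adjacent copies, so that probes can be shared and the split of signal between them is uncertain.

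Acot9 read 6.70, 6.89 and 6.99 in siAspa and 6.80, 7.12 and 6.85 in ntc (log2 fold change -0.06 ± 0.12, adjusted p = 0.896), and its sign turned when siAspa 1 or ntc 2 was left out (0.02 and 0.03). Acot11, a thioesterase known for its induction in brown fat by cold in mice, gave a log2 fold change of -0.32 without overlap (adjusted p = 0.384) that was -0.19 without ntc 1, and Acot13 one of -0.09 with overlap (adjusted p = 0.836). The log2 fold change of Acot2 differed from that of Acot13 by -0.48 (95% confidence interval -0.98 to 0.01, exact two-sided permutation p = 0.1, adjusted p = 0.25) and from that of Acot9 by -0.51 (-1.15 to 0.13, exact p = 0.2, adjusted p = 0.333). In all, 5 pairs of isoforms or partners were tested, with p-values adjusted over them, and none passed 0.05, which a design of 3 against 3 cannot reach.

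The arrays of a group did not contribute equally. The siAspa 3 array had the highest signal of its group for 22 of the 30 genes, beside 34.7% of all genes, and ntc 1 had the highest of its group for 21 of 30, beside 31.0% of all genes. Relative to the ntc mean, the median deviation over the 30 genes was -0.36 on siAspa 1, -0.34 on siAspa 2 and -0.25 on siAspa 3. On siAspa 1, 25 of the 30 genes lay below every ntc array, on siAspa 2 26 and on siAspa 3 23, beside 25.08%, 25.01% and 27.54% of all genes. The same array also had the highest Aspa and Ucp1 signals of its group (7.44 and 10.41), and the part of the knock-down in this order was not tested. Without siAspa 3 the median log2 fold change of the pathway was -0.34 and 20 genes lay below ntc at an unadjusted p under 0.05. Without ntc 1 they were -0.27 and 16, and the share of all genes at this unadjusted p was not counted in either fit.

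**Figure D3:**
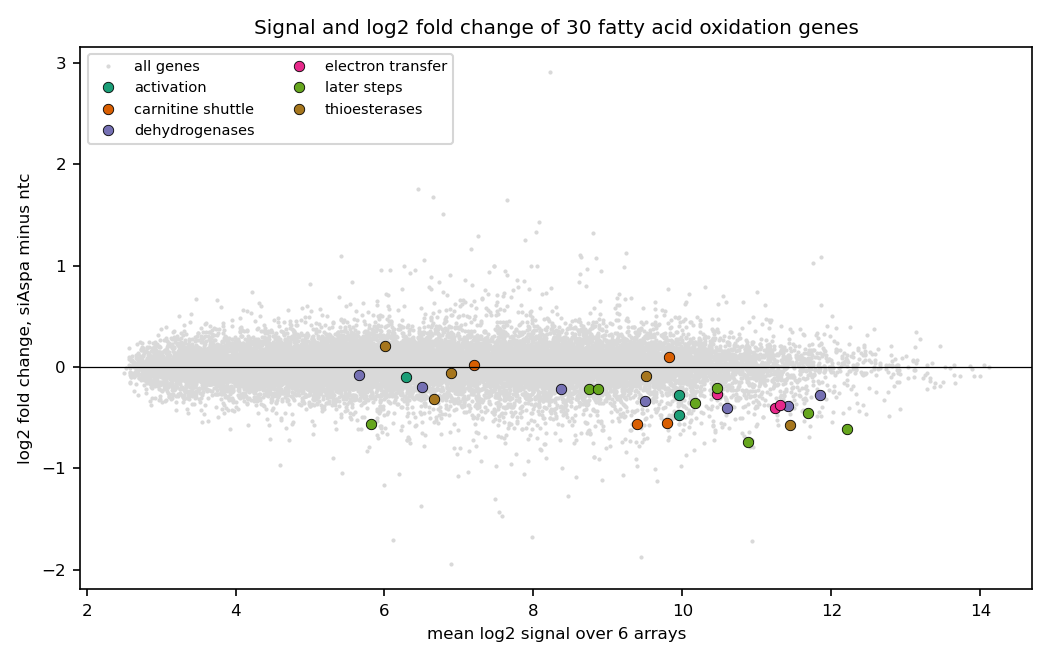
Mean log2 signal over the 6 arrays (horizontal) and log2 fold change of siAspa minus ntc (vertical) of all 22180 genes (grey) and the 30 genes of the pathway (coloured by step). The 12 genes with a mean above 10 have a median log2 fold change of -0.39, and the 3 genes with positive values are Acot1, Slc22a5 and Cpt1a.

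Within the pathway, brighter probe sets had lower log2 fold changes. The median was -0.09 for 8 genes with a mean log2 signal under 8, -0.25 for 10 genes between 8 and 10, and -0.39 for 12 genes above 10, where the medians over all genes of the same ranges were 0.01, 0.02 and 0.01. The groups did not overlap, with siAspa lower, for 3 of 8, 8 of 10 and 11 of 12 genes in these ranges, beside 6.95%, 15.1% and 21.1% of all genes. Spearman's rho of mean signal and log2 fold change was -0.56 over the 30 genes and 0.01 over all genes, and all points come from the same 6 arrays. Probe set signal depends on the probes as well as on the transcript, so that this order is one of brightness and not of abundance.

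Other enzymes of acyl-CoA and carnitine metabolism did not move as 1 block. Of 29 listed, 27 were measured, with a median log2 fold change of -0.10, 10 below and 4 above ntc at an unadjusted p under 0.05 (beside 6.17% and 6.87% of all genes) and none past the main test. Among them were Acsf2, a mitochondrial acyl-CoA synthetase (-0.78, adjusted p = 0.0665, under the robust prior 0.0216), Acss1, the mitochondrial acetyl-CoA synthetase (-0.72, adjusted p = 0.102), and Pccb, a subunit of propionyl-CoA carboxylase (-0.58, adjusted p = 0.0917, under the robust prior 0.0269). Acot7, a cytosolic thioesterase, read 9.10, 9.10 and 9.05 in siAspa and 8.77, 8.70 and 8.61 in ntc (log2 fold change 0.39, adjusted p = 0.128, under the robust prior 0.049). Under the robust prior, 2 genes of this list passed as lower (Acsf2 and Pccb), beside 0.816% of all genes, and 1 as higher (Acot7), beside 0.559%. Slc22a4, a cation transporter of the same family as Slc22a5, was named after its value had been seen, a log2 fold change of 0.58 (adjusted p = 0.146).

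Peroxisomal fatty acid oxidation, which shortens very long and branched chains, had a median nearer to that of all genes than the pathway had. Of 18 listed genes 15 were measured, with a median log2 fold change of -0.09 and 13 negative values. At an unadjusted p under 0.05, 5 were below and 0 above ntc (6.17% and 6.87% of all genes), and none passed the main test or the robust prior. In 7 of 15 all siAspa arrays lay below all ntc arrays, beside 9.99% of all genes. The 4 with the smallest p were Hsd17b4 (-0.31), Acox2 (-0.34), Acaa1a (-0.25) and Phyh (-0.25), with adjusted p-values between 0.21 and 0.313.

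Among 21 regulators of the pathway, 20 were measured, with a median log2 fold change of -0.31. At an unadjusted p under 0.05, 14 were below and 0 above ntc (6.17% and 6.87% of all genes). In the main test 1 gene was called lower, beside 0.0992% of all genes. That gene was Acacb, the mitochondrial-surface acetyl-CoA carboxylase whose malonyl-CoA inhibits Cpt1, which fell to 7.81, 7.65 and 8.01 in siAspa, against 9.17, 8.81 and 9.32 in ntc (log2 fold change -1.28 ± 0.16 (SE), adjusted p = 0.0491). Ppara, the nuclear receptor that activates many genes of the pathway, stood at -0.78 (log2 fold change, adjusted p = 0.0911). Prkaa2, a catalytic subunit of AMP-activated kinase, stood at -0.83 (adjusted p = 0.0896), and Pdk4, a kinase that restrains pyruvate dehydrogenase, -0.67 (adjusted p = 0.0799). The last 3 genes did not pass the main test and did pass under the robust prior (0.042, 0.0356 and 0.0253). Under that prior 6 of the 20 regulators passed as lower, beside 0.816% of all genes, and 0 as higher, beside 0.559%. Pparg and Ppargc1a stand among the regulators and also in a marker list.

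**Figure D4:**
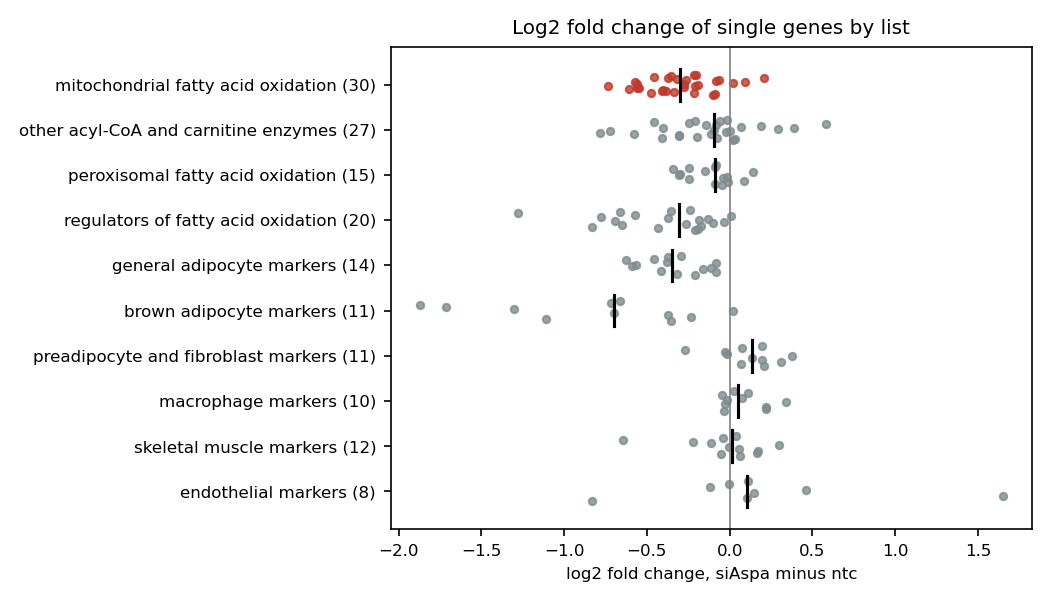
Log2 fold change of siAspa minus ntc for each measured gene (points) of the pathway (top row), of its neighbouring lists and of cell type markers, with the number of genes in brackets and the median as a vertical line. The medians of the pathway (-0.30), the regulators (-0.31) and the general adipocyte markers (-0.35) lie close together, and that of the brown adipocyte markers is lower (-0.70).

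Markers of differentiated adipocytes moved in the same direction as the pathway. Of 15 general adipocyte markers 14 were measured, all 14 with a negative log2 fold change (median -0.35). Of these markers, 9 were lower at an unadjusted p under 0.05 (6.17% of all genes), 0 in the main test (0.0992%) and 5 under the robust prior (0.816%). Their summed linear signal ranged over 36851 to 42065 in siAspa and over 47019 to 49372 in ntc, and that of the 30 genes of the pathway over 31612 to 34195 in siAspa and 41389 to 45745 in ntc. Slc2a4, the insulin-dependent glucose transporter, had a log2 fold change of -0.63, Pnpla2, the adipose triglyceride lipase, -0.59 and Cd36, a fatty acid translocase, -0.46, while Adipoq had -0.08 and Fabp4 -0.11. Of 12 brown adipocyte markers 11 were measured, with a median of -0.70. In the main test 2 of them were called lower (Ucp1 and Otop1), beside 0.0992% of all genes. The summed signal of the 11 markers was 5152 to 6567 in siAspa and 10938 to 12804 in ntc. The part of the adipocyte markers in the values of the pathway was not tested.

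Markers of other cells had medians from 0.01 to 0.13, where the median over all genes was 0.02. For 11 of 12 preadipocyte and fibroblast markers the median log2 fold change was 0.13, with 1 below and 4 above ntc at an unadjusted p under 0.05 (6.17% and 6.87% of all genes), and their summed signal was 40230 to 42908 in siAspa and 36559 to 38653 in ntc. The 10 macrophage markers had a median of 0.05, the 12 skeletal muscle markers one of 0.01 and the 8 endothelial markers one of 0.11. Of the 12 skeletal muscle markers 6 had negative values, and Des had the lowest (-0.64, adjusted p = 0.106, no overlap). Mean log2 signals over these last lists lay between 5.44 and 6.19, near the array medians, and no gene is listed at 0 in these values. The endothelial list did not move 1 way. It held 1 gene called higher, Kdr, a VEGF receptor (log2 fold change 1.65, adjusted p = 0.0325), beside 0.189% of all genes. It also held 3 genes with negative values, of which Emcn, a sialoglycoprotein of endothelial cells, had the lowest (-0.83, adjusted p = 0.133, no overlap). The part of these lists in the values of the pathway was not tested.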

How the data were processed

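RNA of siAspa and ntc iBACs was measured on 3 arrays each, a number that limits the precision. The authors deposited log2 values made by RMA, which corrects background, normalizes by quantiles and summarizes probes. Its version and the genome build are not given in the sources used here. Of 41345 probe sets, the platform annotation gave 23521 a single gene, 1820 several and 16004 none. RefSeq (GRCm38.p6) held 23328 of the single-gene rows.

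The groups were compared for all rows at once with limma 3.58.1 (lmFit, eBayes) in R 4.3.3, two-sided, with Benjamini-Hochberg adjustment over all rows and a threshold of 0.05. The study's methods describe a moderated t-test with the same correction and threshold. Its counts were larger, with more genes lowered than raised, while the main test here called 30 probe sets lower and 48 higher. The calls given here are therefore not those of the study, and the reason for the difference was not tested. The fit was tested on simulated data. Pairs of genes were compared with an exact permutation test of their within-array difference. Alternatives were a robust prior, filters on signal and rows, centring, repeated quantile normalization, array weights, a replicate block, averaging probe sets and leaving out arrays.

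The genes, lists and tests were chosen with earlier results of these data known. Given with every array were genes past the threshold in the main fit or under the robust prior, the 4 lowest and 4 highest, and the first listed gene of each step. Up to 4 genes of each further list were named by smallest p.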

Additional observations from a re-analysis of the deposited data

How the results depend on the processing

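The main test called 30 probe sets lower and 48 higher. These counts were 394 and 253 over the brighter probe sets (mean above the median signal), 329 and 251 with single-gene rows only, 236 and 152 under the robust prior, and between 0 and 1 in each direction without 1 array. With array weights, centring or repeated quantile normalization they stayed within 1.5 times of the main counts. Of the pathway, 0 genes were called lower in the main test, 9 above the median signal (2.25% of the genes there), 9 with single-gene rows (1.45% of all genes), 8 under the robust prior (0.816%) and 4 at an adjusted p under 0.1, a threshold chosen after seeing the data (0.509%). The 2 sets of 9 were the 8 genes of the robust prior with Hadhb, which cleared the signal median of 5.81 only through ntc (mean 5.54 in siAspa and 6.10 in ntc). In both row filters fewer rows enter the adjustment. The fit and its variance prior were also made anew on the rows kept, so that the p-values themselves changed, and the part of each was not tested. Without 1 array, 0 genes of the pathway were called, 16 to 20 were lower and 0 to 1 higher (Acot1, without ntc 3) at an unadjusted p under 0.05, and the median was -0.34 to -0.27. The share of all genes at this unadjusted p was not counted in those fits.

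The replicate numbers did not pair the arrays (correlation of deviations 0.00, 0.02 and 0.00 for equal numbers), and siAspa 1 and siAspa 2 correlated best with their own number, siAspa 3 with ntc 1. With the replicate number as a block, 0 probe sets were called lower and 0 higher. In this fit 17 genes of the pathway lay below ntc at an unadjusted p under 0.05, while the share of all genes was not counted. Aspa kept its log2 fold change of -1.68 with an adjusted p of 0.156. Without 1 array that of Aspa ranged over -1.83 to -1.56.

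Of 419 values of single genes under alternatives, 387 kept sign and call, 26 became calls and 6 changed sign, in 3 genes, and the cause was not tested. These were Slc22a5 (-0.01 without ntc 3, -0.073 without siAspa 3, -0.017 with array weights, range without 1 array -0.073 to 0.088), Acot9 (0.034 without ntc 2, 0.02 without siAspa 1, range -0.13 to 0.034) and Acot13 (0.00065 without ntc 1, range -0.21 to 0.00065). Among pairs, the difference of Hadha and Hadhb turned to 0.0022 without siAspa 3 (range -0.15 to 0.0022) and that of Acadl and Acadvl to -0.01 without siAspa 2 and -0.044 without ntc 3 (range -0.044 to 0.078). The pairs with Acsl1, Acsl3 or Cpt1b could not be computed. Dim probe sets such as those of Hadhb, Acad12 and Acot1 have no detection call, which limits what their values show.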
